A study of Mus musculus with 3 samples.

Results

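Bpifa2, Amy1, Smr3a, BC037156, Ggh and Pnliprp1, 6 of the 32285 genes in the count matrices, were followed cell by cell in the mouse lacrimal gland (LG), the exocrine gland that makes the aqueous part of tears. These genes, better known from salivary glands or digestion, were picked from earlier results of the same libraries, and their levels are therefore described without a test. Single-cell RNA sequencing (scRNAseq) was run on 1 female and 2 male libraries from C57BL/6J mice aged 2 months. Each library pooled the 6 LGs of 3 animals, so that single animals could not be told apart, and the suspensions were made by enzymatic digestion and depleted of dead cells. The male libraries were prepared by a different core on a different date from the female library, so that effects of sex, facility and date cannot be told apart.

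Exocrine acinar cells devote much of their mRNA to a few secreted products, and this mRNA leaks into the suspension when cells break. Bpifa2 encodes a secreted protein of the BPI fold family that is abundant in saliva. Amy1 encodes salivary amylase, which cleaves starch, and Smr3a belongs to a family of submaxillary gland androgen-regulated genes. Ggh encodes gamma-glutamyl hydrolase, which trims the glutamate chain of folates. Pnliprp1 encodes a relative of pancreatic lipase.

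In the GENCODE M21 annotation of GRCm38 (mm10), Bpifa2 lies at chr2:154008265-154016079 on the plus strand, Amy1 at chr3:113555710-113606699 on the minus strand and Ggh at chr4:20042052-20066750 on the plus strand. Smr3a lies at chr5:88002549-88008534 and BC037156 at chr5:87908779-87914171, both on the plus strand. Pnliprp1 lies at chr19:58728887-58744169 on the plus strand. BC037156 is annotated as a lincRNA and the others as protein coding. Amy1 has Amy2 paralogs, so its counts are uncertain to the extent that reads were split between copies. Over all female barcodes Amy1 had 198058 UMIs and Amy2a2 had 8, while Amy2a1, Amy2a3, Amy2a4 and Amy2a5 had 0.

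Promoter windows from RefSeq (GRCm38.p6), running from 250 bases before to 50 bases after a start, are shown because most of these genes were high in the same cells. Windows were matched for 5 of the 6 genes, with 2 starts for Amy1. Each is written 5′ to 3′ on the strand of the gene, with TATAA in capitals.
Bpifa2 (chr2:154008026-154008325, plus strand): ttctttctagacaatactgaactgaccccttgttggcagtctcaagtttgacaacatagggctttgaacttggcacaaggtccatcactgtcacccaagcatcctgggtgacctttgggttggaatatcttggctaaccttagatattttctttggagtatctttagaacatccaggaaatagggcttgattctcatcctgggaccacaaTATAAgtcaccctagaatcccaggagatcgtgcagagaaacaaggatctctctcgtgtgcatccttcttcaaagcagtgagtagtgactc
Amy1, first start (chr3:113577701-113578000, minus strand): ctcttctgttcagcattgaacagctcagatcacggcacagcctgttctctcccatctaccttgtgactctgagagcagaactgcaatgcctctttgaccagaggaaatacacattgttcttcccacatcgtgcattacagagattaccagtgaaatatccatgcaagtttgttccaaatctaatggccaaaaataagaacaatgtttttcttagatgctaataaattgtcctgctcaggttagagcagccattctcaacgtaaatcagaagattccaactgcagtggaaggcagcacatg
Amy1, second start (chr3:113574713-113575012, minus strand): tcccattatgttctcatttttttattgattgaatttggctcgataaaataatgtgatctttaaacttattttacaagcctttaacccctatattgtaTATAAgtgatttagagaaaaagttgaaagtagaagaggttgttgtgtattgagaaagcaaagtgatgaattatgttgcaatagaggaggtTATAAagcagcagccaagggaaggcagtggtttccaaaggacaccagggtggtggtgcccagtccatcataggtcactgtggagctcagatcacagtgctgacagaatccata
BC037156 (chr5:87908529-87908828, plus strand): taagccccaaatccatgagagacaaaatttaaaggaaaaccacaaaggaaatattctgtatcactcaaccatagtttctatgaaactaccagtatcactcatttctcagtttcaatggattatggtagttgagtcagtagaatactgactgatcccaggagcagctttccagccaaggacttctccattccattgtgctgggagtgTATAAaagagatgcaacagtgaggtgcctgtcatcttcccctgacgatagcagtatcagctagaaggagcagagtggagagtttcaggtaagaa
Smr3a (chr5:88002275-88002574, plus strand): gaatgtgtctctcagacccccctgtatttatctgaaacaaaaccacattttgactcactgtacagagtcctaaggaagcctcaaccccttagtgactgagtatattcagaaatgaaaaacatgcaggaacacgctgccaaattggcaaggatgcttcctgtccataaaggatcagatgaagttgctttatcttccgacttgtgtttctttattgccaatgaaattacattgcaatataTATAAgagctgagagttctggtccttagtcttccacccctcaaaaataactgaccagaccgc
Pnliprp1 (chr19:58728637-58728936, plus strand): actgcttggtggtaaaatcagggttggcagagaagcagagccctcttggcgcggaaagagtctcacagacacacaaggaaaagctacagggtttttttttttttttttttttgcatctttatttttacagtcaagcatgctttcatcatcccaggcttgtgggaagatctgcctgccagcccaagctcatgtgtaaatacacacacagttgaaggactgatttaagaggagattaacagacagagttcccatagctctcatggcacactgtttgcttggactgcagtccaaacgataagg
The letters TATAA, the core of a TATA box, began between 40 and 21 bases before the start in 1 of these 6 windows, that of Bpifa2, against 3.51% of 32851 windows. Anywhere in the window, on the strand of the gene, they occurred in 4 of 6, against 17.5% of all windows, a wider search that was added after seeing the data. The letters began 44 bases before the start for BC037156 and 12 for Smr3a. RefSeq starts differ from the GENCODE starts above for some genes, Smr3a among them. The count of 1 in the narrow range therefore depends on the starts used. A match describes the letters only.

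After filtering, 7652 female cells and 5295 and 5397 male cells were kept, with a median of 3252, 1884 and 1788 UMIs (unique molecular identifiers, each standing for 1 captured mRNA). Pairs of libraries shared 8 to 13 cell barcodes. Cells were assigned to classes from marker genes, and "-like" marks such a class. Car6hi-like acinar cells numbered 77 in the female and 109 and 84 in the male libraries, and other acinar-like cells 667, 1489 and 1983. All 5 naming markers were raised in the Car6hi-like cluster, but none was among its 10 leading genes, which began with Chia1, Amy1, BC037156 and Bpifa2. Another measure was the mean over libraries of the log2 ratio to other acinar-like cells. By it Car6 and Wfdc18 ranked 1 and 2, both with all cells and with member-rich cells (defined next) left out. Mup4 ranked 4 with all cells and 3 without member-rich cells.

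Among kept cells, the signal of the female library was concentrated in few. A cell was called member-rich when the 6 genes together made up at least 5% of its UMIs, which held for 37 of 7652 female cells and 0 male cells. Of the 37, 31 were Car6hi-like, 3 endothelial-like, 1 myeloid-like, 1 Ltf+-like and 1 other acinar-like. The share ran from 5.01% to 74.3% with a median of 46.5%, whereas no male cell exceeded 0.250%. The cells just inside the threshold had 5.01%, 8.71% and 17.4%, and those just outside had 4.83%, 4.62% and 4.46%. The 3 cells just inside were endothelial-like or myeloid-like, and the lowest of them held only 599 UMIs.

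**Figure D1:**
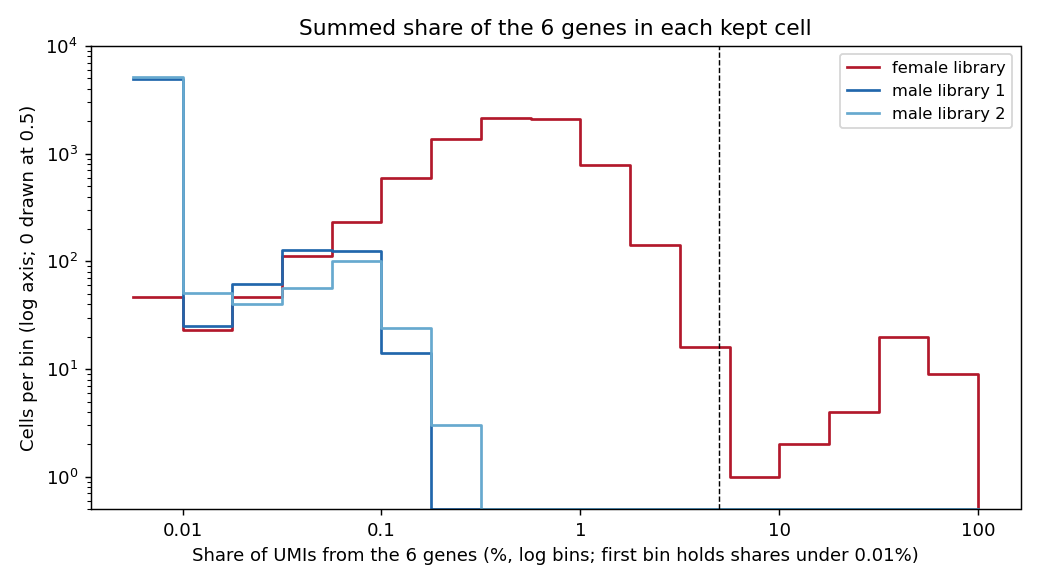
Number of kept cells (log axis) by the share of their UMIs that came from the 6 genes (percent, log bins) in the female and both male libraries, with the 5% threshold dashed. Most female cells lie below the threshold and 37 lie above it, up to 74.3%, while no male cell exceeds 0.250%.

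Bpifa2 was the most abundant of the genes in member-rich cells, at 304365 CPM (counts per 1000000 UMIs). It stood at 960 CPM in the other 46 female Car6hi-like cells, 342 CPM in other acinar-like cells and 2954 CPM in non-epithelial cells that were not member-rich. Cell by cell, it made up 4.17% to 41.5% of the UMIs of member-rich cells, with a median of 27.6%. Both male libraries had 0 Bpifa2 UMIs, in kept cells and in all barcodes alike. In kept cells a count of 0 allows up to 0.0797 CPM in male library 1 and 0.0727 CPM in male library 2.

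Smr3a stood at 128821 CPM in member-rich cells and 476 CPM in the other female Car6hi-like cells, and Amy1 at 81228 CPM and 123 CPM. BC037156 stood at 21523 CPM and 67.8 CPM, and Ggh at 7721 CPM and 76.9 CPM. These 4 genes thus had the same order of classes as Bpifa2. All 37 member-rich cells had a UMI of Bpifa2, Amy1, Smr3a and BC037156, and 36 had 1 of Ggh. Together the 6 genes took 54.4% of the UMIs of member-rich cells and 0.198% in the other female Car6hi-like cells. Of the UMIs in kept female cells, member-rich cells held 66.8% for Bpifa2, 77.2% for Amy1, 63.1% for Smr3a, 71.4% for BC037156 and 55.3% for Ggh. Over the 37 cells, which share a library and were chosen on the sum of these genes, the rank correlation of the shares with Bpifa2 was 0.81 for Smr3a, 0.75 for Amy1, 0.74 for Ggh and 0.49 for BC037156.

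Pnliprp1 had another distribution. It stood at 71.9 CPM in member-rich cells, 273 CPM in the other female Car6hi-like cells and 562 CPM in other acinar-like cells, and member-rich cells held 0.163% of its UMIs. Within the acinar-like cells it was uneven, with 1152 CPM in cluster 0, led by Prom2 and Qsox1, 629 CPM in cluster 10, led by Ogt and Snrnp70, and 511 CPM in cluster 9. The other acinar-like clusters 5, 8 and 6 had 398, 364 and 301 CPM. Uncalled female barcodes with 10 to 100 UMIs, which hold mostly free RNA, had 441 CPM with a 95% counting interval of 298 to 630 CPM. That interval covers the pooled acinar-like level but not the level of cluster 0. Kept male cells had 0 Pnliprp1 UMIs.

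Ggh UMIs were found in most male classes at low levels. It stood at 81.9 and 46.1 CPM in male Ltf+-like cells, 50.2 and 36.2 CPM in Car6hi-like cells and 7.47 and 6.07 CPM in other acinar-like cells. In both libraries the counting intervals of the Ltf+-like and Car6hi-like cells overlapped each other and lay above that of other acinar-like cells. Male duct-like cells had 34.6 and 55.9 CPM and fibroblast-like cells 49.0 and 34.3 CPM. Uncalled male barcodes with 10 to 100 UMIs had 12.9 CPM from 3 Ggh UMIs in male library 1 and 5.79 CPM from 1 in male library 2, with counting intervals of 2.67 to 37.8 and 0.146 to 32.2 CPM. These cover the levels of other acinar-like cells. They overlap the intervals of Car6hi-like and fibroblast-like cells in both libraries and of duct-like cells in male library 1. Ggh in those classes is thus not told apart from free RNA in these barcodes. Uncalled barcodes with 5 to 50 UMIs had 10 Ggh UMIs in male library 1, with an interval of 6.90 to 26.5 CPM. The Car6hi-like, fibroblast-like and duct-like levels there lay above it, so that the reading depends on the barcodes used. The intervals of Ltf+-like cells lay above those of uncalled barcodes in both libraries.

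Amy1 in the males was almost limited to fibroblast-like cells, which are stromal. They held 32 of 32 kept UMIs in male library 1 and 18 of 21 in male library 2, or 28.0 and 23.7 CPM, and the remaining 3 were in other acinar-like cells. Uncalled male barcodes with 10 to 100 UMIs had 0 Amy1 UMIs, which allows up to 12.9 and 17.4 CPM. Male Car6hi-like cells had 0 Amy1 UMIs. Smr3a had 1 UMI in kept cells of male library 1 and 0 in male library 2, and BC037156 had 0 in both.

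**Figure D2:**
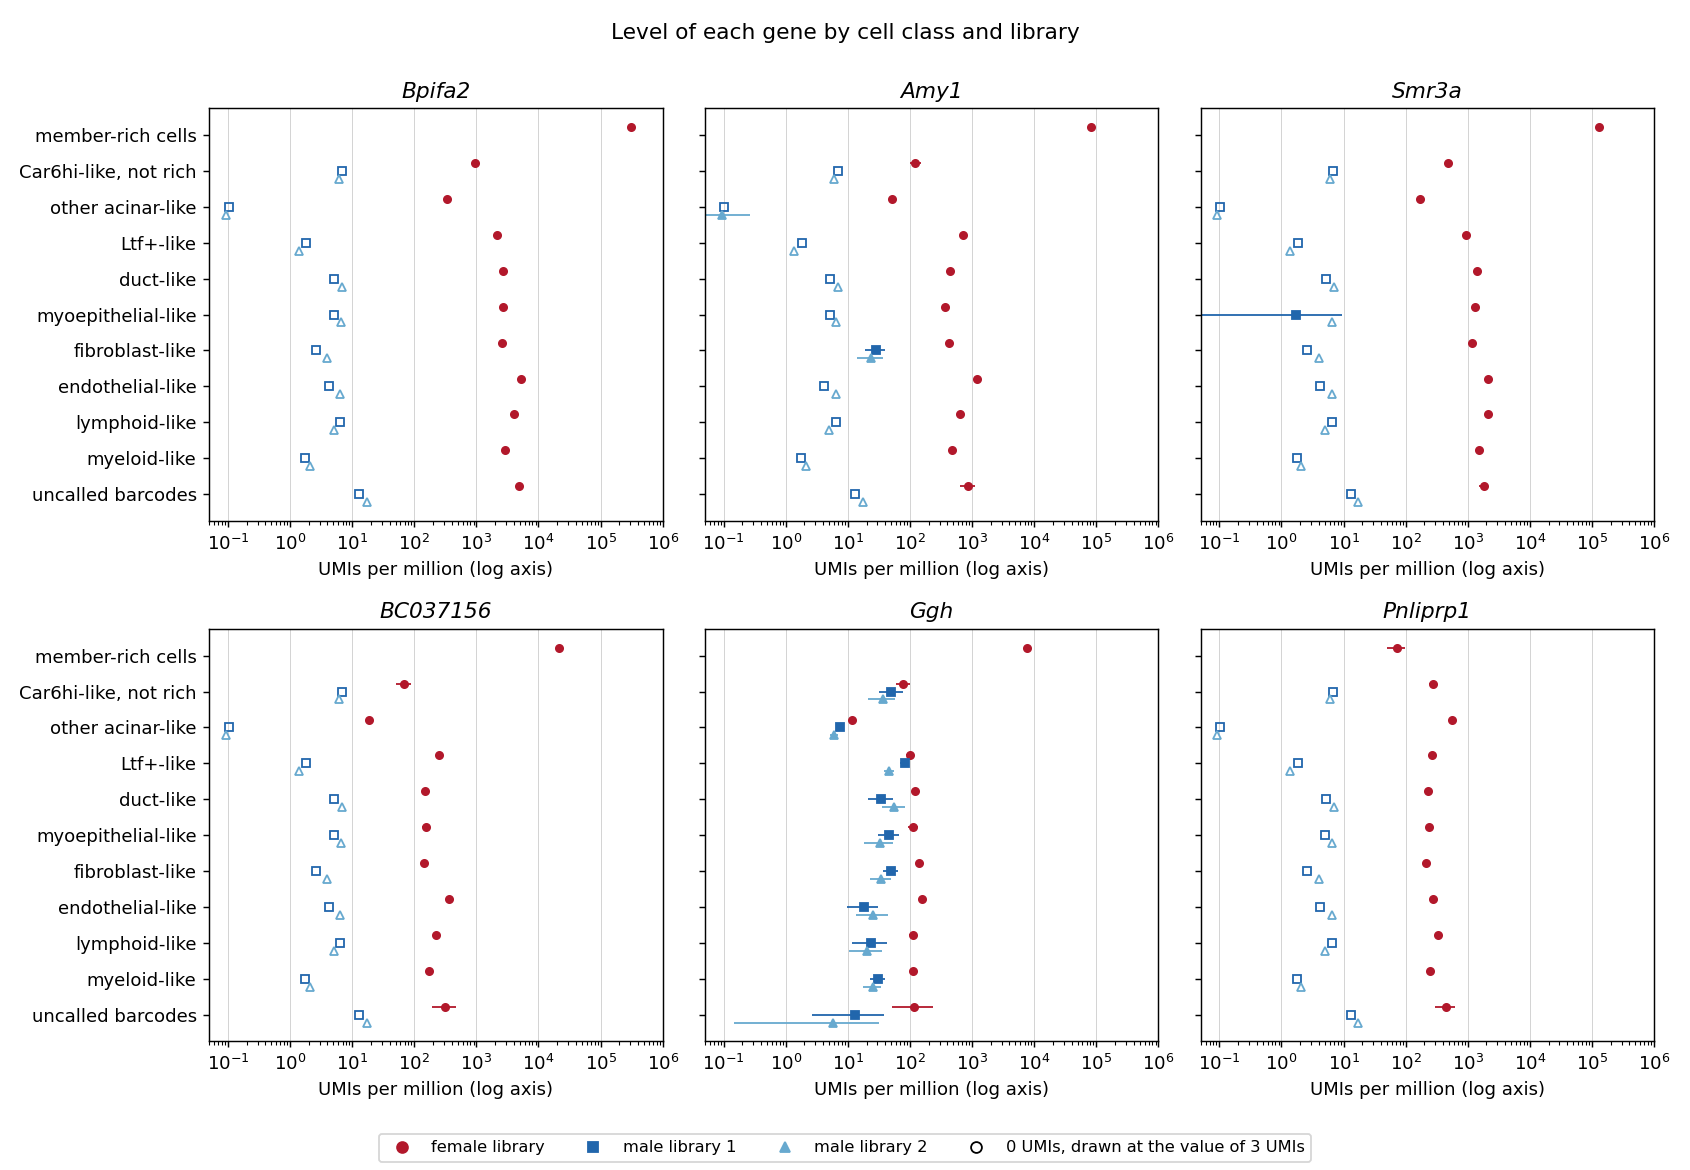
CPM (log axis) of each gene by cell class in the female and both male libraries, with 95% exact Poisson intervals over counting error and open symbols for 0 UMIs, drawn at the value of 3 UMIs. Member-rich cells are highest for 5 genes and lowest for Pnliprp1 among the female classes, and the endothelial-, myeloid-, Ltf+- and other acinar-like rows include their few member-rich cells.

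Low levels of the genes were found throughout the female library. A Bpifa2 UMI was found in 98.3% of kept female cells and in 97.7% of fibroblast-like cells, a type that should lack it. After thinning to 1000 UMIs the share was 86.1% in fibroblast-like, 78.3% in other Car6hi-like and 52.4% in other acinar-like cells. Free RNA had 4912 CPM of Bpifa2, 1809 CPM of Smr3a and 853 CPM of Amy1, above the levels of the Car6hi-like cells that were not member-rich. Per 100 Bpifa2 UMIs, those cells had 49.6 UMIs of Smr3a, 12.8 of Amy1, 7.07 of BC037156, 8.02 of Ggh and 28.4 of Pnliprp1. Free RNA had 36.8, 17.4, 6.29, 2.4 and 8.98. Whether the UMIs in those cells came from free RNA was not tested. Of all female Bpifa2 UMIs, 69.3% were in uncalled barcodes and 12.9% in the kept member-rich cells. Over the 6 genes the uncalled share ran from 57.8% for Amy1 to 71.0% for Smr3a. As background, 63066640 of the 154532064 female UMIs of all genes were in called barcodes. Per 100 Bpifa2 UMIs, Smr3a had 42.3 UMIs in member-rich cells, 49.2 in the other non-epithelial cells and 36.8 in free RNA. For Amy1 the values were 26.7, 16.3 and 17.4, and for Pnliprp1 0.0236, 8.50 and 8.98.

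All 37 member-rich cells, of which 31 were Car6hi-like, were next compared with the other 46 Car6hi-like cells of the female library, to describe how else they differed. The rest of the 37 were of other classes, and the part of cell class in the differences was not tested. There is 1 female library and no replicate, so genes were ranked by the log2 ratio of CPM with 20 added and no test was made. The median depth was 11903 UMIs in member-rich and 9886.5 in the other cells, and the median mitochondrial share 6.72% and 2.60%, whose part in the differences was not tested. Of 336 genes with at least 50 UMIs in either set, 65 were at least 2-fold higher (19.3%) and 43 at least 2-fold lower (12.8%).

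Some other salivary secretory genes were higher in member-rich cells. Of 26 listed genes in the matrices, 15 had a UMI in member-rich cells and 6 had 0 UMIs in every library. Of 8 with at least 50 UMIs in either set, 7 were at least 2-fold higher and 1, Car6, was lower. Their median log2 ratio was 3.42 against 0.47 over all 336 genes. Cst10, Dcpp1, Prpmp5 and Agt reached 50 UMIs in member-rich cells only, so that the filter set their direction. Cst10, a cystatin, had 8789 CPM against 19.6 CPM and was seen in all 37 cells. Dcpp1, a demilune cell and parotid protein, had 7993 CPM against 22.2 CPM but was seen in 18 of the 37 cells. Prpmp5, a proline-rich protein gene, had 317 CPM against 1.30 CPM, and Scgb2b27, a secretoglobin, 2372 CPM against 246 CPM. Male Car6hi-like cells had 0 UMIs of Cst10, Dcpp1 and Prpmp5. Since the 6 genes take so much of these cells, CPM were also taken over the UMIs outside them. The count of 7 was then the same, but 70.8% of all 336 genes were at least 2-fold higher, and the medians were 4.52 for the list and 1.52 for all genes.

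Of the digestive enzyme list, 13 of 26 genes in the matrices had 0 UMIs in every library. Only Chia1, an acidic chitinase, passed the UMI filter. It did so in member-rich cells only, with 9696 UMIs against 22 in the other Car6hi-like cells. The filter thus set its direction. Chia1 had the largest ratio outside the 6 genes, with 18838 CPM against 28.7 CPM, and 0 UMIs in male Car6hi-like cells. Next in rank was 2310057J18Rik, with 21853 CPM against 60.0 CPM, but male Car6hi-like cells had 9427 and 9193 CPM of it. This gene too passed the filter in member-rich cells only, with 11248 UMIs against 46. Of the folate list, Folr1, a folate receptor, had 119 CPM against 95.2 CPM. Of the exocrine gland transcription factors, Etv1 had 447 CPM against 69.1 CPM and Xbp1, a regulator of secretory capacity, 117 CPM against 156 CPM.

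Most lacrimal acinar genes were lower in member-rich cells over all UMIs. Of 11 measured, 8 were at least 2-fold lower (72.7%) and 2 higher (18.2%), with a median log2 ratio of -1.87. Of all 336 genes, 12.8% were lower and 19.3% higher. Over the UMIs outside the 6 genes, 4 were lower (36.4%) and 3 higher (27.3%), and the median was -0.83 against 1.52 for all genes. By that total, 6.55% of all 336 genes were lower and 70.8% higher. Obp1a, an odorant-binding protein gene, had 15473 CPM against 296084 CPM, and male Car6hi-like cells had 227239 and 184800 CPM. Lcn11, a lipocalin, had 249 CPM against 11108 CPM. Wfdc12 went the other way, with 3046 CPM against 61.3 CPM, and male Car6hi-like cells had 2423 and 2494 CPM. Wfdc12 passed the UMI filter in member-rich cells only, with 1568 UMIs against 47, so that the filter set its direction. Outside the list, Mup4, a major urinary protein gene, had the smallest ratio, with 85.5 CPM against 23036 CPM. Mup4 passed the filter in the other Car6hi-like cells only, with 44 UMIs against 17667, so that its direction was set likewise. Per cell, the 12 listed genes made up 2.43% to 41.0% of UMIs in the 31 member-rich Car6hi-like cells, with a median of 9.38%. In the 46 others they made up 35.4% to 58.5%, with a median of 47.4%, so that the ranges overlapped. The female median was 14.25% in duct-like, 17.4% in Ltf+-like and 51.05% in other acinar-like cells. In free RNA these genes summed to 47.3% of UMIs. Whether their UMIs in member-rich cells came from free RNA was not tested.

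**Figure D3:**
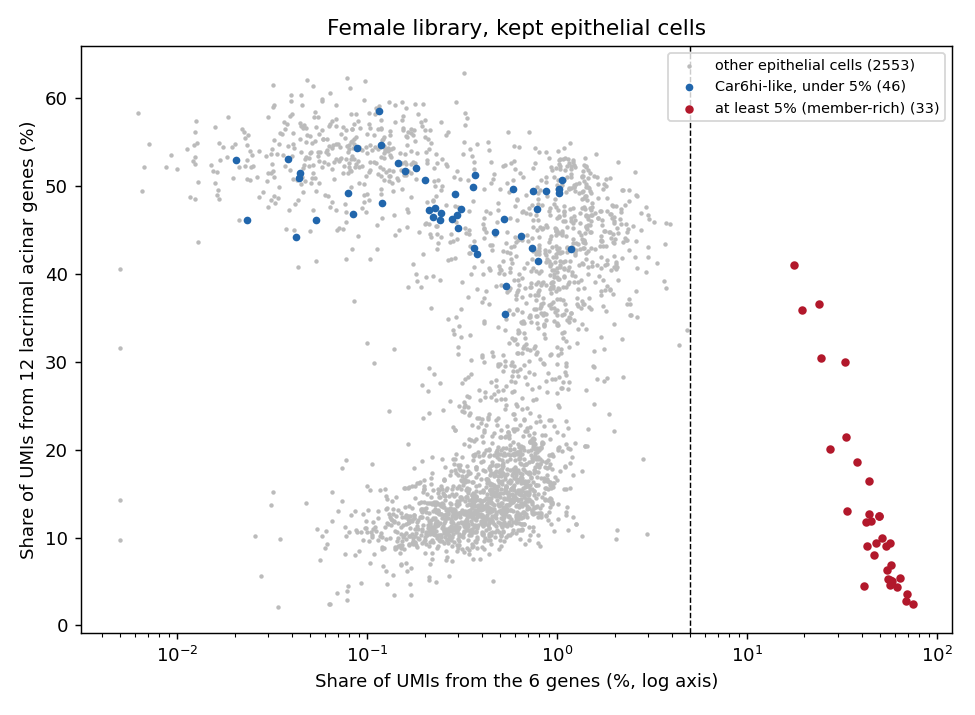
Share of UMIs from 12 lacrimal acinar genes (percent) against the share from the 6 genes (percent, log axis, values below 0.005% drawn there) in kept epithelial cells of the female library, with the 5% threshold dashed. Member-rich cells lie right of the line and reach down to 2.43%, and the other Car6hi-like cells lie between 35.4% and 58.5%. Both shares are of the same total, so a high value of one limits the other.

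**Figure D4:**
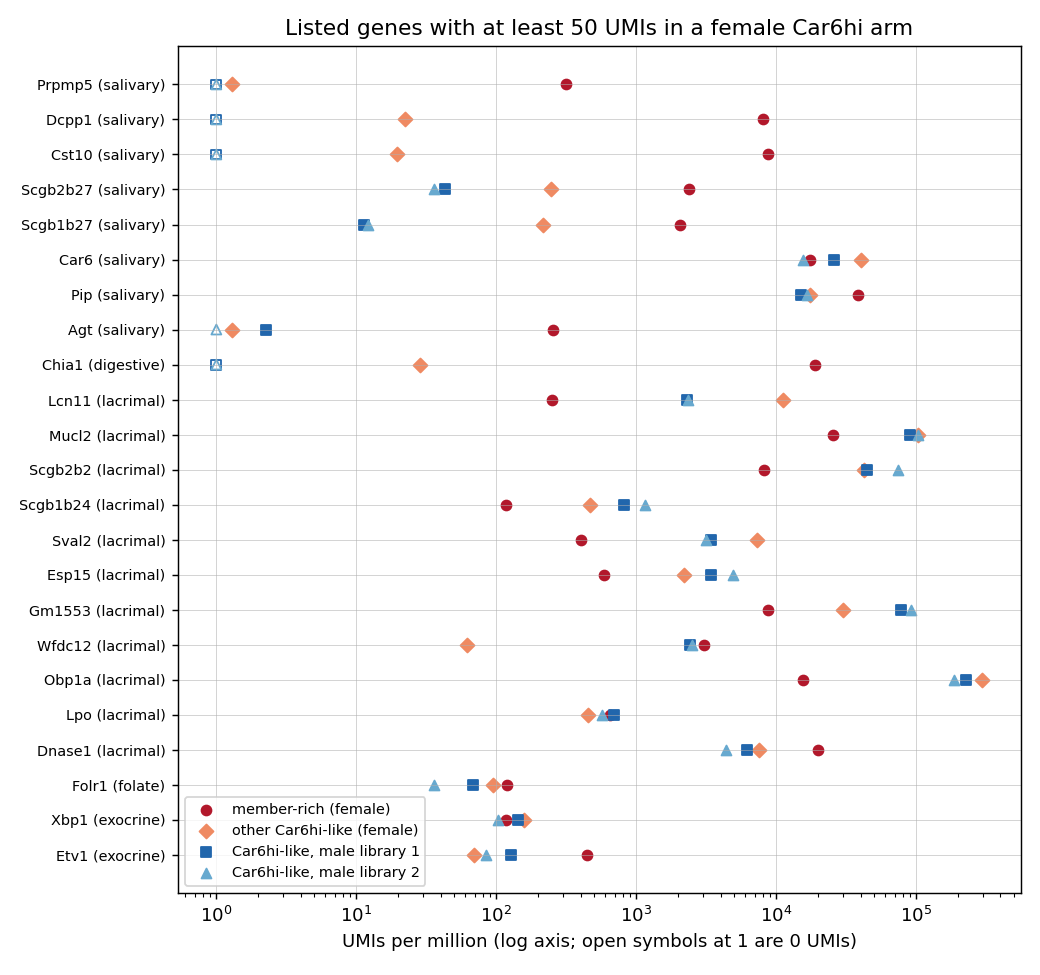
CPM (log axis) of listed genes with at least 50 UMIs in member-rich or other female Car6hi-like cells, shown for these and for male Car6hi-like cells, with open symbols at 1 for 0 UMIs. Chia1, Cst10, Dcpp1 and Prpmp5 are high in member-rich cells and at 0 in the males, and Obp1a and Lcn11 are lower in member-rich than in other Car6hi-like cells.

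Whether genes of the salivary list differ between Car6hi-like and other acinar-like cells was tested over the 3 libraries, on UMIs summed per library and class. The list is not limited to salivary products, since the study also counts Scgb2b27 and Pip among tear proteins. The salivary genes tested were kept out of the clustering, whereas the genes that formed the classes are among the others, so that counts over all genes are background only. By the quasi-likelihood test of edgeR, 235 of 9164 genes were higher (2.56%) and 331 lower (3.61%) at an adjusted p under 0.05. The split was 271 and 189 with RLE size factors and 1196 and 51 with total UMIs, and the median log2 change of all genes was -0.13, -0.01 and 0.68, so that nothing is read from the balance.

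Of 10 salivary genes tested, 7 were called higher and 1 lower. Odam, Scgb2b27 and Scgb1b27 were also called higher without the female library, without member-rich cells and by DESeq2, and the other 4 were in none of these. The list was chosen with earlier results of these data known. Cst10 and Dcpp1 had UMIs in these classes in the female library only. The count of 7 of 10 is therefore a description and is not read against the share over all genes. Without member-rich cells, 2.23% of 8929 genes were higher and 4.45% lower. Scgb2b27 was higher by 6.09 ± 0.28 on the log2 scale (SE, edgeR adjusted p = 2.86e-97) and in 3 of 3 libraries, with 1371 UMIs in female and 19 and 18 in male Car6hi-like cells. In CPM, its Car6hi-like and other acinar-like levels were 1116 and 3.57 in the female library, 43.4 and 0.682 in male library 1 and 36.2 and 0.986 in male library 2. Without the female library its log2 change was 4.74 (edgeR adjusted p = 0.00113). Scgb1b27, another secretoglobin, was higher by 7.26 ± 0.36 (edgeR adjusted p = 8.13e-86) in 3 of 3 libraries, but with 5 and 6 UMIs in the males. Without the female library its log2 change was 5.05 (edgeR adjusted p = 0.00745). The sizes given for these genes over all libraries thus rest largely on the female library. Odam, the odontogenic ameloblast-associated gene, rested on 9, 15 and 10 UMIs, and 8 of the 9 female UMIs were in 1 member-rich cell.

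The calls of Cst10 and Dcpp1 rested on member-rich cells of the female library, since both had 0 UMIs in either class of the males. Without those cells their edgeR adjusted p was 0.771 and 0.449, and by DESeq2 with all cells it was 0.872 for both. Agt, which encodes angiotensinogen, had 120 UMIs in female and 1 and 0 in male Car6hi-like cells. Ttr, the transthyretin gene, was called higher by 2.32 ± 0.44 (edgeR adjusted p = 6.84e-06), but its change was -1.52 without the female library (adjusted p = 0.616 by edgeR) and -1.59 without member-rich cells (adjusted p = 0.459 by edgeR). Scgb2b26, a secretoglobin, had a log2 change of -2.27 ± 0.35 (edgeR adjusted p = 1.49e-08) and was lower in 3 of 3 libraries. Without the female library its edgeR adjusted p was 0.0738.

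Over the 2632 epithelial cells of the female library, the levels most like the summed 6 genes were those of 2310057J18Rik (Pearson r = 0.56), Chia1 (0.53), Gm42418 (0.51), Cst10 (0.50) and Car6 (0.40). These cells share a library, its free RNA and a range of depths, and the values are a description.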

How the data were processed

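Counts (UMIs per gene and barcode) were deposited by the authors as unnormalized matrices, made per the submitters' processing notes with Cell Ranger 6.1.2 on mm10. The annotation release is not given in the sources used here. The study corrected for ambient RNA, and no such correction was made here. Called barcodes passed with over 500 UMIs, over 200 genes and a mitochondrial share under 15%, and those with the highest scrublet scores (scanpy 1.11.5), at 0.8% per 1000 barcodes, were removed as doublets (646, 287 and 315). Cells were clustered with Seurat 5.3.0 and sctransform 0.4.2 (canonical correlation, 3000 features, 30 dimensions, resolution 1) without 306 genes, the 6 genes and the listed genes other than naming markers among them, and classes were named from markers. The genes and lists were chosen with earlier results of these data known.

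CPM (counts per 1000000) were taken from summed UMIs, with 95% exact Poisson intervals. Intervals and the limit for a count of 0 (3 counts) cover counting error only. Sums per library and class were tested with edgeR 4.0.16 in R 4.3.3 (TMM, filterByExpr, library as covariate, Benjamini-Hochberg over all genes), with DESeq2 1.42.0 as an alternative. The libraries are pools, so that p-values do not measure the spread between animals. For a gene seen in 1 library only, p-values do not measure the spread between libraries. Each SE was derived from the log2 change and the statistic of its edgeR test. The scripts were tested on simulated counts, where TMM gave an offset below 0 with no gene changed and many changes in genes of low count were missed. RLE size factors and CPM over UMIs outside the 6 genes were added after seeing the data. Genes named were the 6, list members (salivary secretory, digestive enzyme, lacrimal acinar, folate, transcription factors) with at least 50 UMIs, genes among the 15 largest and 10 smallest ratios, and the 5 largest correlations. Odam, Agt, Ttr, Scgb1b27 and Scgb2b26 are named as salivary genes called by edgeR.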

Additional observations from a re-analysis of the deposited data

Results flagged for a closer look

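Member-rich barcodes also occurred in female data outside the kept cells, and none occurred there in the male libraries. Among called female barcodes, 179 failed a filter, 149 of them with too few genes and 42 with too high a mitochondrial share. A further 24 were removed as doublets, 39.3% of the 61 that passed the filters, against 7.79% of all female barcodes that passed. Among uncalled female barcodes with over 500 UMIs, 375 of 70227 were member-rich.

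Pip, which encodes a prolactin-inducible protein, had a log2 ratio of CPM between Car6hi-like and other acinar-like cells of 0.46 in the female library and of -0.50 and -0.12 in the male libraries. In the female library Pip stood at 38618 CPM in the 37 member-rich cells, 17455 CPM in the other Car6hi-like cells and 18835 CPM in other acinar-like cells, so that without member-rich cells the Car6hi-like level lay below that of other acinar-like cells, as in the males. The difference between libraries was not tested, and sex cannot be told apart from the facility and date of preparation.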

How the results depend on the processing

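The number of member-rich female cells was 37, and it was 987 with a threshold of 1%, 61 with no doublet removed, 9 with a mitochondrial share under 5% and 240 over all called barcodes. The males had 0 under each of these. Bpifa2 in female Car6hi-like cells was 120681 CPM, against 86248 CPM with a mitochondrial share under 5%, 152356 CPM with no doublet removed and 960 CPM without member-rich cells. Pnliprp1 in other acinar-like cells was 525 CPM with a mitochondrial share under 5% and 552 CPM with no doublet removed. The share of fibroblast-like cells with a Bpifa2 UMI was 66.0% at 500 UMIs, and free RNA of 5 to 50 UMIs had 6481 CPM of Bpifa2. For Car6hi-like against other acinar-like cells, total UMIs gave 1196 genes higher and 51 lower, RLE size factors 189 lower, DESeq2 144 higher, 45 lower and 3 salivary genes higher, and no library term 65, 9 and 1, that 1 being Odam. Without member-rich cells 3 salivary genes were called higher. With a mitochondrial share under 5% the log2 change of Dcpp1 was -0.12 (edgeR adjusted p = 0.97). Leaving out each library in turn gave 96 to 163 genes higher, 91 to 169 lower and 3 to 7 salivary genes higher, the lowest of each without the female library. Over the UMIs outside the 6 genes, 4 lacrimal genes were lower, and of all genes 238 were higher and 22 lower. The causes were not tested. Cell classes were compared within each library, with library as a covariate. No paired analysis was possible because, between the female and male groups, which were not tested against each other, fewer than 2 replicate numbers are shared. The male Car6hi-like sums held 438296 and 497538 UMIs, so that levels of genes with few UMIs there have a wide counting error. Over all male barcodes, Chia1, Cst10 and Prpmp5 had 0 UMIs, and Dcpp1 had 1 in male library 1. The part of depth in these counts was not tested.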
